A study of Homo sapiens with 8 samples.

Results

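Condensin, cohesin, spindle and cytokinesis genes build the mitotic chromosome and divide the cell. Their mRNA was followed in 2 human cancer cell lines after knockdown of VRK1, a nuclear kinase that phosphorylates chromatin proteins. The set has 34 genes, chosen by name: 10 act in chromosome compaction, 6 in cohesin, 10 on the spindle, 6 in cytokinesis and 2 at the metaphase to anaphase transition. Probes named for 33 of them were on the array, out of 16922 genes with a named probe, and ECT2 had none. NCAPH, SMC1A, UBE2S and CIT lay below the level filter, between 5.58 and 6.07 log2 on the 8 arrays. The other 29 were tested among 9451 genes, and each of these 29 had every group mean above the filter level of 6.08 log2.

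The data were 8 Illumina bead arrays in 4 groups of 2. MDA-MB-231, a breast adenocarcinoma line, and HT1080, a fibrosarcoma line, were each transfected with a scrambled siRNA as control or with siVRK1 #308. Cells had grown for 24 h in medium with 10% serum and RNA was taken 42 h after the siRNA was added. A single siRNA sequence stands for the knockdown, and the labels do not say whether replicates were separate cultures, so p-values measure only the spread between these arrays, which may be technical. Vimentin mRNA (VIM) was high in both controls, averaging 11.9 and 11.8 log2. The keratin KRT19 averaged 11.02 in control MDA-MB-231 and 5.74 in control HT1080. ESR1, PTPRC and CD3E had group means between 5.64 and 5.85 log2, near background. Other leukocyte markers were higher: CD74, CD68, LAPTM5 and CD14 averaged 9.45, 8.90, 8.47 and 8.03 in control MDA-MB-231. In control HT1080 they averaged 5.88, 9.92, 6.89 and 5.91. The other marker lists were mixed too. In control MDA-MB-231 and control HT1080, FN1 averaged 5.68 and 5.70, EPCAM 5.88 and 5.77, and KRT8 9.04 and 7.62. None of 4 tested leukocyte markers was called after siVRK1, and of 5 tested epithelial markers 1 was, KRT7 in MDA-MB-231 (0.77 log2, limma adjusted p = 0.0172), whose part in the results was not tested.

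VRK1 mRNA was lower on every siVRK1 array. The MDA-MB-231 controls read 7.93 and 7.61 log2 against 6.23 and 6.74 with siVRK1 (-1.28, SE 0.17, limma adjusted p = 0.0117), or 41.1% of control signal. For HT1080 the controls were at 7.84 and 7.88 against 6.57 and 6.51 (-1.32, adjusted p = 0.0240), or 40.1%.

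As background, condensin is a ring complex that folds chromatin into compact mitotic chromosomes, working with the DNA decatenating enzyme topoisomerase II. Cohesin is a related ring that holds sister chromatids together from S phase until separase opens it, and it also shapes interphase chromatin loops, and its subunits are made throughout the cycle. Most spindle and cytokinesis genes are instead transcribed in a burst in G2 and mitosis, under control of a promoter element called the cell cycle genes homology region (CHR) and of CCAAT boxes. For comparison the 6 cohesin genes were set against the other 28, called the cell-cycle regulated members here from general knowledge. No cycle phase was measured on these arrays.

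Promoters are described first. Their sequences do not depend on the array values, although the members and classes were chosen with earlier results of these data known. RefSeq promoters of GRCh38.p14, covering 250 bases before and 50 bases from the annotated start, were held for 29 of the 34 members, without FAM83D, NCAPH2, RACGAP1, RAD21 and TPX2. These 29 are not the same genes as the 29 tested members. They include ECT2, NCAPH, SMC1A, UBE2S and CIT, which were not tested. The CHR core TTTGAA was found on either strand in 20 of 24 cell-cycle regulated members (83.3%), against 12.5% of 15843 protein-coding promoters and 15.6% of all 27305 promoters of that length. A CCAAT box (CCAAT, either strand) was in 17 of the 24 (70.8%), against 36.0% of protein-coding promoters and 35.6% of all promoters. Both motifs together were in 15 of the 24 (62.5%), against 5.18% and 6.15%. Among 5 cohesin promoters, only that of SMC3 held TTTGAA and those of STAG1 and STAG2 held CCAAT, and none held both. An E2F type sequence (GGCGGGAA, either strand) was in 2 of the 24, CEP55 and NCAPD3, and in STAG1, against 4.15% of protein-coding promoters and 3.14% of all. In the members, 1 hit of one of the 3 motifs overlapped a hit of another. These are letter matches, not measured binding sites.

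**Figure D1:**
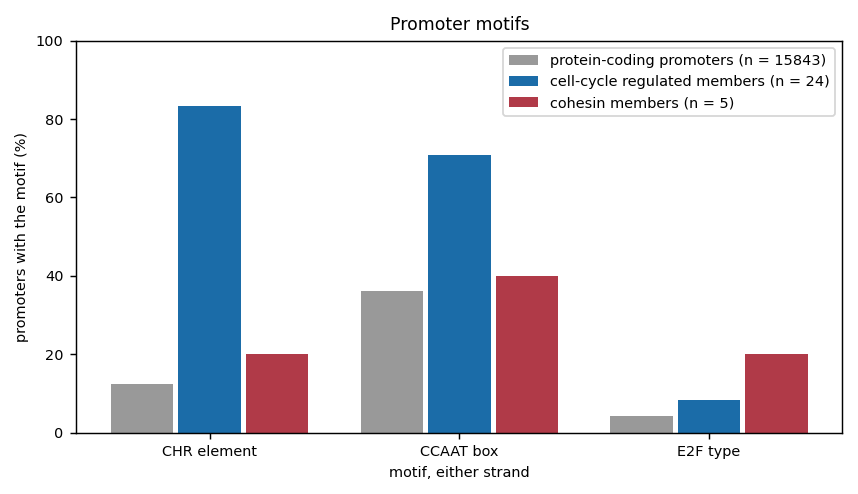
Share of promoters (in %, vertical axis) that hold each of 3 motifs on either strand, for 15843 protein-coding promoters in grey, 24 cell-cycle regulated members in blue and 5 cohesin members in red. The CHR core was in 83.3% of the cell-cycle regulated members and in 12.5% of protein-coding promoters.

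Promoters are printed for 5 of the 6 members that fell on the average of both lines (described below) and for NIPBL, the cohesin loader whose value was the highest of all members there, so that genes with and without the motif can be compared. Each is given 5′ to 3′ on the gene's strand, with TTTGAA and CCAAT or their reverse complements TTCAAA and ATTGG in capitals. They lie at chr12:6493852-6494151 (NCAPD2, plus strand), chrX:123960310-123960609 (STAG2, plus strand), chr13:52455738-52456037 (CKAP2, plus strand), chr2:112764560-112764859 (CKAP2L, minus strand), chr10:93496362-93496661 (CEP55, plus strand) and chr5:36876519-36876818 (NIPBL, plus strand). CEP55 and CKAP2L each hold 2 CHR cores and NCAPD2 holds 1, while CKAP2, STAG2 and NIPBL hold none in this window.
NCAPD2: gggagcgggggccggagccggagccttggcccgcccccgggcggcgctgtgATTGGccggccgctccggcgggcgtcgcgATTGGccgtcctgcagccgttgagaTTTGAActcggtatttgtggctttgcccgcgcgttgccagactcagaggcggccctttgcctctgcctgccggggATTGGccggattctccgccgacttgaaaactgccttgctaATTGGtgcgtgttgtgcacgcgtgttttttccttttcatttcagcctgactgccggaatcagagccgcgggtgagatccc
STAG2: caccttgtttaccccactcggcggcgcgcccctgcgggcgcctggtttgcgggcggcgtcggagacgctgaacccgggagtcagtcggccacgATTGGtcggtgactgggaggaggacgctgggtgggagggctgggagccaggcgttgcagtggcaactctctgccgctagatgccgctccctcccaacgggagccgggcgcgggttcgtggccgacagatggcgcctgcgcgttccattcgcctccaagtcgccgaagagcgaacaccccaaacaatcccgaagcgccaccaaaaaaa
CKAP2: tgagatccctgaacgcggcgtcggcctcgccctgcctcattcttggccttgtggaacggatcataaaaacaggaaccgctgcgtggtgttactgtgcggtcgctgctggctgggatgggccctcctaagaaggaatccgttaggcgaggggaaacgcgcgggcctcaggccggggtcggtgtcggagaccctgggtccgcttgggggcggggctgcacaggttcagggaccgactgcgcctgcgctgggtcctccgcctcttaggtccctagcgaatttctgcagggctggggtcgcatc
CKAP2L: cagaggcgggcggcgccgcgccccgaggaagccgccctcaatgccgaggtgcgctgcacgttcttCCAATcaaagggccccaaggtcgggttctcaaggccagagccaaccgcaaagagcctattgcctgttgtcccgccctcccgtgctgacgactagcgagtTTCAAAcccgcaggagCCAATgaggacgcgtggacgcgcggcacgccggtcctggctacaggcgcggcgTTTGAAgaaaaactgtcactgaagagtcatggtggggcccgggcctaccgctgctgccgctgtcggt
CEP55: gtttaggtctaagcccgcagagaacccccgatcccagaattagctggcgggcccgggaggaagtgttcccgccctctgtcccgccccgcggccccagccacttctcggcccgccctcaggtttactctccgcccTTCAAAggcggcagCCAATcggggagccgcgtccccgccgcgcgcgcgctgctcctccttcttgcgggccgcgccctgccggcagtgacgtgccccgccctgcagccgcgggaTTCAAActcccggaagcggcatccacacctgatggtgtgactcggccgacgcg
NIPBL: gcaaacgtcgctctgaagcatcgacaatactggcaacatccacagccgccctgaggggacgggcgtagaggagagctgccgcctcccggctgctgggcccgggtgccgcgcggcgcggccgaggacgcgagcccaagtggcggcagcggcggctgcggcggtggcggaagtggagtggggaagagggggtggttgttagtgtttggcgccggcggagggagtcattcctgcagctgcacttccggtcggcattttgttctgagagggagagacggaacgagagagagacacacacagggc

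Of the 30 CHR cores in cell-cycle regulated promoters, the middle position of the first base was 30 bases before the start, and 17 of the 24 promoters had 1 within 100 bases before or 50 bases after it. Among tested members with a promoter, the 18 cell-cycle regulated genes that hold a CHR core had a median average change of -0.30 log2 after siVRK1, ranging from -0.56 to -0.08. The 2 without a core, CKAP2 and TACC3, stood at -0.60 and -0.33. So few genes lack the core that the classes were not compared.

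One control array stood apart from its replicate for these genes. Over the 24 tested cell-cycle regulated members, MDA-MB-231 control 1 read higher than control 2 by a median of 0.25 log2, whereas replicates of the other 3 groups differed by medians of -0.10 to 0.08 log2. TOP2A, for example, read 11.42 on MDA-MB-231 control 1 and 10.83 on control 2. For the members, the medians, counts of calls and the larger changes in MDA-MB-231 are therefore also given without control 1.

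After siVRK1 the cell-cycle regulated members stood lower in both lines by a modest amount. In MDA-MB-231, 23 of 24 had a negative change with a median of -0.32 log2, and in HT1080 22 of 24 did, with a median of -0.31 log2. The median over all genes tested was 0.00 in each line, and 49.3% and 49.4% of those genes were negative. Without MDA-MB-231 control 1 the median of the cell-cycle regulated members in MDA-MB-231 was -0.16. Over all 29 members, cohesin included, 23 were then negative there, down from 27 with all arrays. The cohesin count in that line was 4 of 5 with and without control 1, so the drop lay in the cell-cycle regulated members. The 5 tested cohesin genes had medians of -0.19 and -0.21 log2, with 4 of 5 negative in each line, and the values of the 2 classes overlapped. Fewer cells in G2 and mitosis and less RNA per such cell cannot be told apart in these data.

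**Figure D2:**
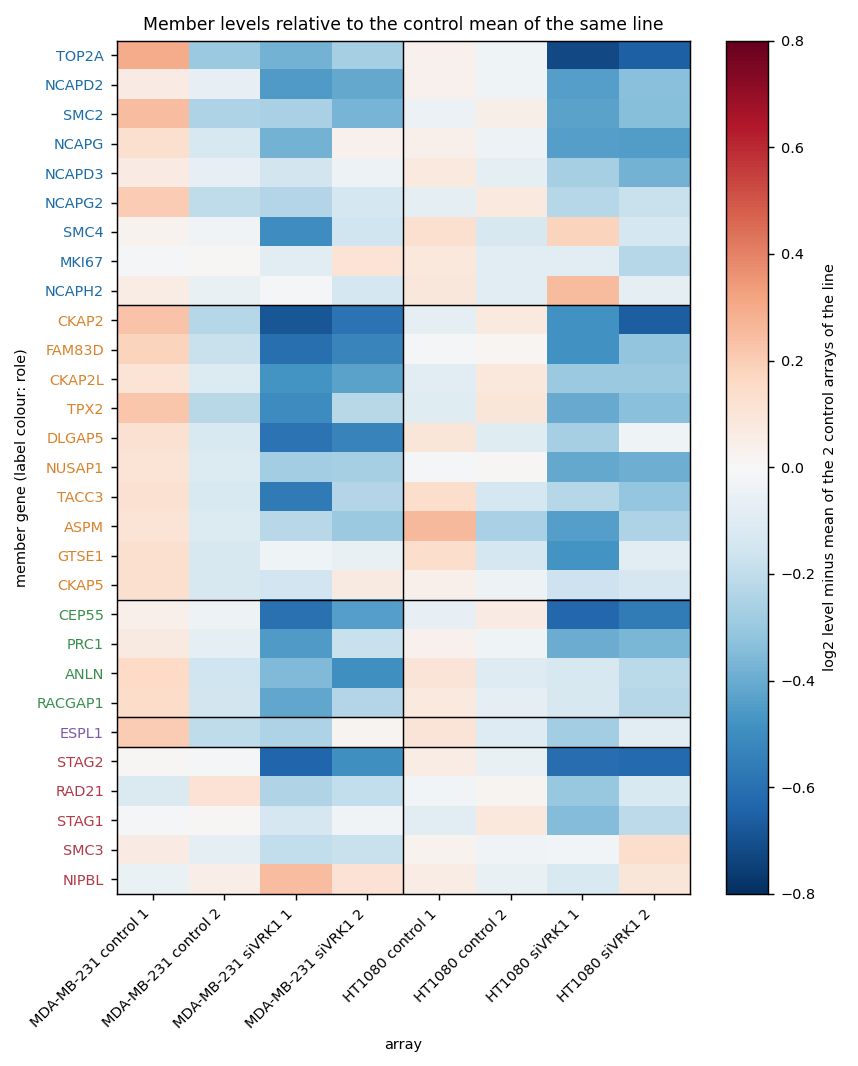
Level of each of the 29 tested members on each of the 8 arrays, in log2 minus the mean of the 2 control arrays of the same line (blue lower, red higher), with rows grouped by role and sorted by the average change. Most rows are blue on the 4 siVRK1 arrays, MDA-MB-231 control 1 is red for most cell-cycle regulated genes, and STAG2 is the bluest row of the cohesin block.

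In MDA-MB-231, 1 of 29 members was called (limma, Benjamini-Hochberg adjusted p under 0.05), and it was the cohesin gene STAG2, where 0.518% of all genes were called lower. At an unadjusted p under 0.05 there were 13 of 29 members, against 13.2% of all genes. Without MDA-MB-231 control 1, limma called 0 members, and 8 of 29 had an unadjusted p under 0.05, against 13.7% of all genes. In HT1080 0 of 29 were called by limma, where 0.307% of all genes were called in either direction, and 14 of 29 had an unadjusted p under 0.05 against 10.4% of all genes. Both siVRK1 arrays lay below both control arrays for 18 of 29 members in MDA-MB-231 (18.8% of all genes) and for 21 of 29 in HT1080 (21.8%). In both lines at once that held for 14 of 29 members against 6.77% of all genes. On the average of the lines, which uses all 8 arrays, 6 of 29 fell and 0 rose, against 1.58% of all genes called lower.

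The 6 members that fell on the average were CKAP2, STAG2, CEP55, FAM83D, NCAPD2 and CKAP2L. CKAP2, a microtubule-associated spindle protein, had the largest fall with all arrays. MDA-MB-231 controls were at 8.73 and 8.27 log2 and siVRK1 arrays at 7.82 and 7.91. HT1080 controls were at 8.36 and 8.51 and siVRK1 arrays at 7.95 and 7.77. The groups did not overlap in either line, and the average change was -0.60 log2 (SE 0.11, limma adjusted p = 0.0223), or 65.8% of control signal. By line it stood at -0.64 (SE 0.15, adjusted p = 0.0897) in MDA-MB-231 and -0.57 (adjusted p = 0.216) in HT1080. Without MDA-MB-231 control 1 its average change was -0.49, smaller than those of STAG2 (-0.58) and CEP55 (-0.54), and its change in MDA-MB-231 was -0.41.

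CEP55, a midbody protein that recruits the machinery of abscission at the end of cytokinesis, read 10.08 and 10.01 in MDA-MB-231 control and 9.45 and 9.61 with siVRK1. In HT1080 it read 9.00 and 9.13 in control and 8.43 and 8.50 with siVRK1. All siVRK1 arrays lay below the controls of their line, with an average change of -0.56 (SE 0.08, adjusted p = 0.00710). The changes by line were near each other, -0.52 (adjusted p = 0.0619) and -0.60 (adjusted p = 0.0722).

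FAM83D, which anchors casein kinase 1 to the spindle, read 9.71 and 9.35 in MDA-MB-231 control against 8.93 and 9.00 with siVRK1. In HT1080 the values were 8.98 and 9.01 against 8.51 and 8.68. Here too the arrays of the groups did not overlap, and the average change was -0.48 (SE 0.09, adjusted p = 0.0323).

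CKAP2L, a spindle and midbody protein related to CKAP2, read 9.45 and 9.24 in MDA-MB-231 control and 8.87 and 8.92 with siVRK1, then 9.23 and 9.41 in HT1080 control and 9.02 on both siVRK1 arrays. Its average change was -0.37 (SE 0.08, adjusted p = 0.0444). NCAPD2, a HEAT repeat subunit of condensin I, read 8.76 and 8.62 against 8.24 and 8.28 in MDA-MB-231 and 9.12 and 9.05 against 8.64 and 8.75 in HT1080. The average change of NCAPD2 was -0.41 (SE 0.07, adjusted p = 0.0245), again with separate groups in each line.

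With control 1 left out, the MDA-MB-231 changes were -0.48 for CEP55, -0.38 for FAM83D, -0.34 for CKAP2L and -0.36 for NCAPD2, none of them called. The calls on the average rested on few arrays. Left out 1 array at a time, STAG2 lost its call on the average without 1 of 8 arrays, CEP55 without 3, CKAP2 without 5 and NCAPD2, CKAP2L and FAM83D without 7, with adjusted p up to 0.190, while every change kept its sign. The count of 6 fell when any single array except MDA-MB-231 control 2 was omitted, and so did the count over all genes. Whether the count fell more among the members than among all genes was not tested. Without MDA-MB-231 control 2 both counts rose. CKAP2L and FAM83D also lost their calls after normexp background correction, and CKAP2L with an intensity trend in the fit.

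**Figure D3:**
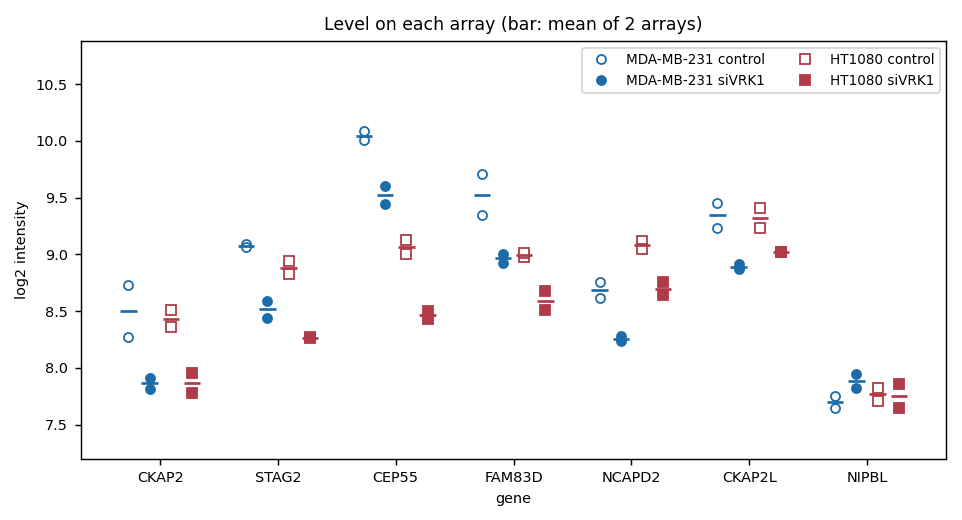
Log2 intensity of the 6 members that fell on the average of both lines, and of NIPBL, on each array. Open symbols are control and filled symbols siVRK1, circles MDA-MB-231 and squares HT1080, and short bars are means of 2 arrays. For the 6 called genes the filled symbols of a line lie below its open symbols, and for NIPBL they do not.

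In the chromosome compaction group 9 of 10 genes were tested and NCAPD2 was the 1 called. SMC2 and SMC4 are the ATPases that both condensins share. SMC2 had a change of -0.31 log2 in MDA-MB-231 and of -0.39 in HT1080. SMC4 read 9.85 and 9.79 in MDA-MB-231 control against 9.33 and 9.66 with siVRK1 (-0.33, SE 0.15, adjusted p = 0.401). For HT1080 its controls were at 10.34 and 10.09 and its siVRK1 arrays at 10.39 and 10.08 (0.02, SE 0.15, adjusted p = 0.986), so the groups overlapped there. The difference between lines, 0.35 (SE 0.22, adjusted p = 0.848), did not pass. Other probes of both genes gave smaller or different values: the second kept SMC2 probe read -0.08 and -0.18, and the 2 dimmer SMC4 probes read -0.11 and -0.03 in MDA-MB-231 and -0.15 and -0.50 in HT1080. The SMC4 value in HT1080 thus differed by probe. With MDA-MB-231 control 1 left out, SMC2 stood at -0.07 and the median of the compaction genes in MDA-MB-231 was -0.03, from -0.19 with all arrays.

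NCAPG, a further condensin I subunit, stood at -0.17 in MDA-MB-231, where its siVRK1 arrays (9.33 and 9.74) overlapped the controls (9.83 and 9.57), and at -0.44 (adjusted p = 0.327) in HT1080, where they did not (8.82 and 8.81 against 9.30 and 9.22). NCAPG differed between lines by -0.27 (SE 0.21, adjusted p = 0.883). Among condensin II subunits NCAPD3 stood at -0.09 and -0.32, and NCAPG2 at -0.19 and -0.20. NCAPH2 was dim, at 6.40 and 6.28 in MDA-MB-231 control against 6.33 and 6.20 (-0.08) and at 6.29 and 6.11 in HT1080 control against 6.45 and 6.13 (0.09, SE 0.13, adjusted p = 0.903), with overlap in both lines. None of the 3 passed the test in any siVRK1 comparison.

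TOP2A, topoisomerase II alpha, had the lowest value of all members in HT1080. Its controls there were at 10.90 and 10.83 and its siVRK1 arrays at 10.14 and 10.21, a change of -0.69 (SE 0.17, adjusted p = 0.168) that did not pass, and its average change was -0.51 (adjusted p = 0.0593). It was called in HT1080 with that line fitted alone (limma adjusted p = 0.0194). The other settings that left out no array did not call it there (adjusted p from 0.140 to 0.235). On the average TOP2A was called with the replicate number as a block (adjusted p = 0.0492). No other setting that left out no array called it on the average (adjusted p from 0.0510 to 0.0950). The fit shares a single spread per gene over the 4 groups. The SD of TOP2A was 0.42 in MDA-MB-231 control and 0.08 with siVRK1 there, against 0.050 and 0.051 in HT1080. With 1 array left out at a time, the TOP2A change ran from -0.72 to -0.65 in HT1080 and from -0.65 to -0.36 on the average. Whether TOP2A was called varied among these fits, both in HT1080 and on the average. In MDA-MB-231 it stood at -0.32, with the siVRK1 arrays at 10.74 and 10.86, the second of which was above control 2, and at -0.024 without control 1. MKI67, which coats mitotic chromosomes and gives the proliferation marker Ki-67, was dim. It read 6.51 and 6.53 in MDA-MB-231 control against 6.43 and 6.63 (0.01, SE 0.12, adjusted p = 0.986), and 6.62 and 6.45 in HT1080 control against 6.44 and 6.31 (-0.16).

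All 10 spindle genes were negative in both lines, with a median change of -0.38 log2 for MDA-MB-231 and -0.32 for HT1080. When control 1 was left out, 8 of 10 were negative in MDA-MB-231, with a median of -0.22. Beside CKAP2, CKAP2L and FAM83D, NUSAP1, a spindle microtubule bundler, stood at -0.27 and -0.40 (average -0.33, SE 0.08, adjusted p = 0.0534), and its second probe gave -0.33 and -0.37. TPX2, the activator of Aurora A, stood at -0.36 and -0.37, TACC3, which stabilises kinetochore fibres, at -0.40 and -0.27, and ASPM, a spindle pole protein, at -0.26 and -0.34. None of these 4 was called. In MDA-MB-231 without control 1 they stood at -0.16 (NUSAP1), -0.14 (TPX2), -0.28 (TACC3) and -0.15 (ASPM).

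DLGAP5, which stabilises kinetochore fibres, showed the widest gap between the lines. It read 9.78 and 9.53 in MDA-MB-231 control and 9.07 and 9.13 with siVRK1, a change of -0.56 (SE 0.13, adjusted p = 0.0817), or -0.44 without control 1. In HT1080 it read 8.93 and 8.74 in control and 8.57 and 8.80 with siVRK1, overlapping values with a change of -0.15. The difference of 0.41 log2 (SE 0.18, limma adjusted p = 0.800) did not pass. CKAP5, a microtubule polymerase that is also present outside mitosis, stood at -0.04 and -0.15, and GTSE1, a microtubule plus-end protein, at -0.05 and -0.28. Both were positive in MDA-MB-231 without control 1, at 0.08 each.

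In cytokinesis 4 of 6 genes were tested, all were negative in both lines, and CEP55 was the 1 called on the average. ANLN, the anillin that links actin and myosin in the contractile ring, stood at -0.42 in MDA-MB-231 and -0.17 in HT1080. PRC1, which bundles the central spindle, stood at -0.32 and -0.38, and RACGAP1, the centralspindlin subunit that acts with ECT2 on RhoA, at -0.32 and -0.18. The siVRK1 arrays of all 4 lay below the controls in both lines. The changes in MDA-MB-231 without control 1 were -0.26 for ANLN, -0.24 for PRC1 and -0.18 for RACGAP1. ESPL1, the separase that cleaves cohesin at anaphase, stood at -0.11 and -0.19 with overlapping arrays in both lines, and at 0.10 in MDA-MB-231 without control 1.

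Of the 5 tested cohesin genes STAG2 alone was called after siVRK1. STAG2 and its paralog STAG1 are alternative subunits, of which a cohesin complex holds a single one, bound to RAD21. Its brightest probe read 9.09 and 9.07 log2 in MDA-MB-231 control and 8.44 and 8.59 with siVRK1, and 8.94 and 8.82 in HT1080 control and 8.27 and 8.26 with siVRK1. The groups were well separated in each line. The change was -0.56 (SE 0.11, adjusted p = 0.0423) in MDA-MB-231, -0.62 (SE 0.11, adjusted p = 0.0543) in HT1080 and -0.59 (SE 0.07, adjusted p = 0.00589) on the average, or 66.5% of control signal. In MDA-MB-231 it lost the call without each of the 8 arrays (adjusted p from 0.0757 to 0.193), with changes from -0.64 to -0.49. On the average it lost it without HT1080 control 1 alone (adjusted p = 0.0552). The other 2 STAG2 probes lay near background, at 5.95 and 5.82 log2 on average, and so do not check this change.

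The other cohesin genes stood at smaller values and none was called after siVRK1. STAG1 read 7.89 and 7.91 in MDA-MB-231 control and 7.76 and 7.87 with siVRK1, a change of -0.08, and stood at -0.28 (SE 0.11, adjusted p = 0.415) in HT1080. RAD21, the subunit that separase cuts, stood at -0.22 and -0.21, with the siVRK1 arrays below the controls in both lines. SMC3, a ring ATPase, was dim, at 6.70 and 6.56 in MDA-MB-231 control against 6.44 and 6.45 (-0.19), and at 6.40 and 6.35 in HT1080 control against 6.36 and 6.52 (0.06, SE 0.11, adjusted p = 0.926). NIPBL, which loads cohesin onto chromatin, had the highest value of all members in MDA-MB-231, 0.18 (SE 0.12, adjusted p = 0.573), where its siVRK1 arrays (7.95 and 7.82) lay above the controls (7.65 and 7.75). The HT1080 siVRK1 arrays (7.65 and 7.86) overlapped the controls (7.83 and 7.71), with a change of -0.01, and a dimmer NIPBL probe gave 0.12 and 0.02. No test compared the 2 classes.

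**Figure D4:**
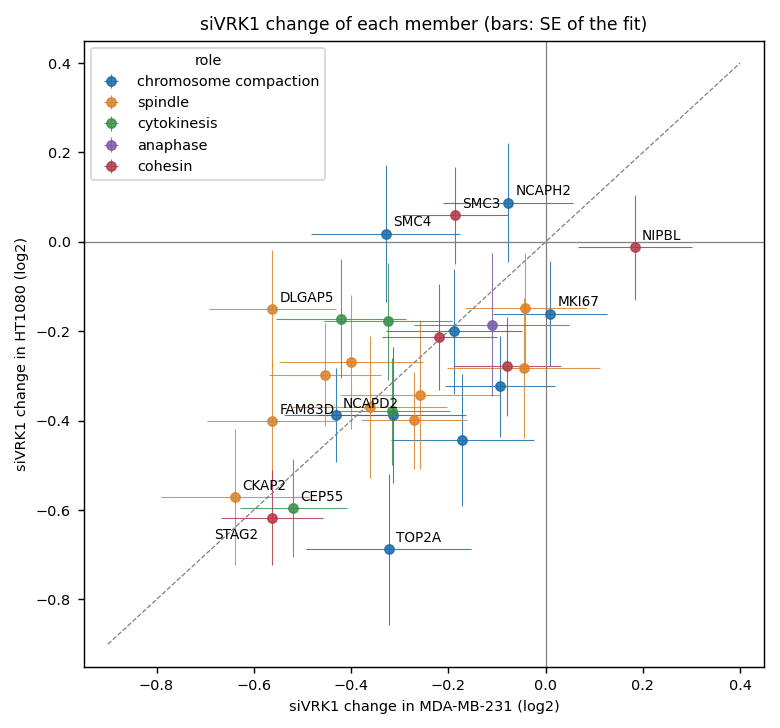
siVRK1 change of each tested member in MDA-MB-231 (horizontal axis) and HT1080 (vertical axis), in log2, coloured by role, with bars of 1 SE from the limma fit and a dashed line of equal change. Most members lie at lower left, STAG2 lies beside CEP55 and CKAP2, and NIPBL lies to the right of zero.

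The test of the difference in response between the lines passed for no member. Of the 29 members 0 were called (limma, with 0% of all genes called), and 0 had an unadjusted p under 0.05 against 6.16% of all genes. The differences, HT1080 minus MDA-MB-231, ran from -0.36 log2 for TOP2A to 0.41 for DLGAP5, with SE between 0.15 and 0.24.

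Related genes outside the set were read on the average of the lines. Across the 6 lists 19 genes fell and 0 rose (limma), out of 125 tested (15.2%, against 1.58% of all genes called lower), led by STMN1, the microtubule-destabilising stathmin (-0.79 log2, SE 0.12, adjusted p = 0.0125), PCNA, the sliding clamp of replication (-0.77, SE 0.11, adjusted p = 0.00941), and ROCK1, a kinase that activates myosin in the contractile ring (-0.74, SE 0.11, adjusted p = 0.00836). Of 26 measured cytokinesis partners 6 fell (23.1%), and of 35 spindle partners 6 fell (17.1%), against the same 1.58% of all genes. Each of these lists had a median of -0.12, against -0.30 for all tested members.

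The counts of the other 4 lists stand against the same 1.58% of all genes called lower. Among 16 regulators of cohesin and of the SMC5/6 complex 1 fell, PTTG1, the separase inhibitor securin (-0.47, SE 0.09, limma adjusted p = 0.0310). The median of that list was 0.01. Of 8 compaction partners 1 fell, the chromokinesin KIF4A (-0.36, median of the list -0.03). Of 18 genes of the anaphase ubiquitin ligase and its partners 2 fell, the cyclin CCNB2 (-0.55) and the activator CDC20 (-0.50), with a list median of -0.03. PTTG1, KIF4A, CCNB2 and CDC20 are named because their lists had so few calls, after their values were seen. Of 22 genes of G1/S and replication 3 fell, with a median of -0.13. By line, 3 of the 125 fell in MDA-MB-231 with control 1 included (2.4%, against 0.518% of all genes called lower). They were PCNA (-0.98), KIF14, a midzone kinesin (-0.84), and CDC20 (-0.64). In HT1080 0 genes of these lists were called by limma, against 0.307% of all genes called in either direction. There 31 of the 125 (24.8%) had an unadjusted p under 0.05, against 10.4% of all genes.

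The 2 lines were also compared without knockdown, by their control arrays. Of 29 members 11 were lower in HT1080 and 2 higher (limma adjusted p under 0.05), against 27.5% of all genes called lower and 26.2% called higher. The shares of members were 37.9% lower and 6.90% higher. Control 1 of MDA-MB-231 bears on this comparison. Over the 24 cell-cycle regulated members the median difference was -0.19 log2 with both control arrays, 0.012 without MDA-MB-231 control 1 and -0.42 without control 2.

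All 4 cytokinesis genes were lower in HT1080. CEP55 read 9.00 and 9.13 log2 in HT1080 against 10.08 and 10.01 in MDA-MB-231, a difference of -0.98 (SE 0.11, adjusted p = 4.61e-05). RACGAP1 was at 8.83 and 8.67 against 9.50 and 9.21 (-0.61, SE 0.13, adjusted p = 0.00316). ANLN was at 9.31 and 9.11 against 9.96 and 9.64 (-0.59, SE 0.13, adjusted p = 0.00419), and PRC1 at 10.15 and 10.09 against 10.74 and 10.59 (-0.54, SE 0.12, adjusted p = 0.00371). The lines did not overlap for any of the 4, but such separation was common. Both HT1080 control arrays lay below both MDA-MB-231 control arrays for 38.7% of all genes, and above them for 38.7%. Among spindle genes NUSAP1 was at 9.42 and 9.43 against 10.58 and 10.36 (-1.04, SE 0.11, adjusted p = 2.94e-05), the largest difference of the members with all arrays. Without MDA-MB-231 control 1 NUSAP1 stood at -0.93, smaller than RAD21 (-1.04) and CEP55 (-0.94), and with its probes averaged at -0.83, smaller than CEP55 (-0.98) and RAD21 (-0.92). DLGAP5 (-0.82, SE 0.13, adjusted p = 0.000483) and FAM83D (-0.53, SE 0.13, adjusted p = 0.00695) were lower too, with the array values given above. CKAP5 was at 10.42 and 10.34 against 10.97 and 10.71 (-0.46, SE 0.12, adjusted p = 0.0106), while the control means of CKAP2 (-0.07), CKAP2L (-0.03) and TACC3 (-0.02) were close.

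Condensin and cohesin subunits went in both directions. NCAPD2 was higher in HT1080 (0.40, SE 0.11, adjusted p = 0.00987), whereas NCAPG (-0.45, SE 0.15, adjusted p = 0.0267) was lower. NCAPG2 was lower as well, at 8.93 and 9.08 against 9.94 and 9.53 (-0.74, SE 0.14, adjusted p = 0.00151). SMC4 stood at 0.40 (limma adjusted p = 0.0508) and was not called, and its 2 dimmer probes gave 0.52 and 0.55. It was called with its probes averaged, with an intensity trend in the fit and with the replicate number as a block. The other settings that left out no array did not call SMC4. STAG1 was higher, at 8.43 and 8.60 against 7.89 and 7.91 (0.62, SE 0.11, adjusted p = 0.00103), and STAG2 stood at -0.19 (adjusted p = 0.146). RAD21 was lower, at 8.87 and 8.91 against 9.69 and 9.93 (-0.92, SE 0.12, adjusted p = 0.000125). NCAPG lost its call without 3 arrays and NCAPD2 and CKAP5 without 2 each, while the other 10 kept it without each of the 8.

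**Figure D5:**
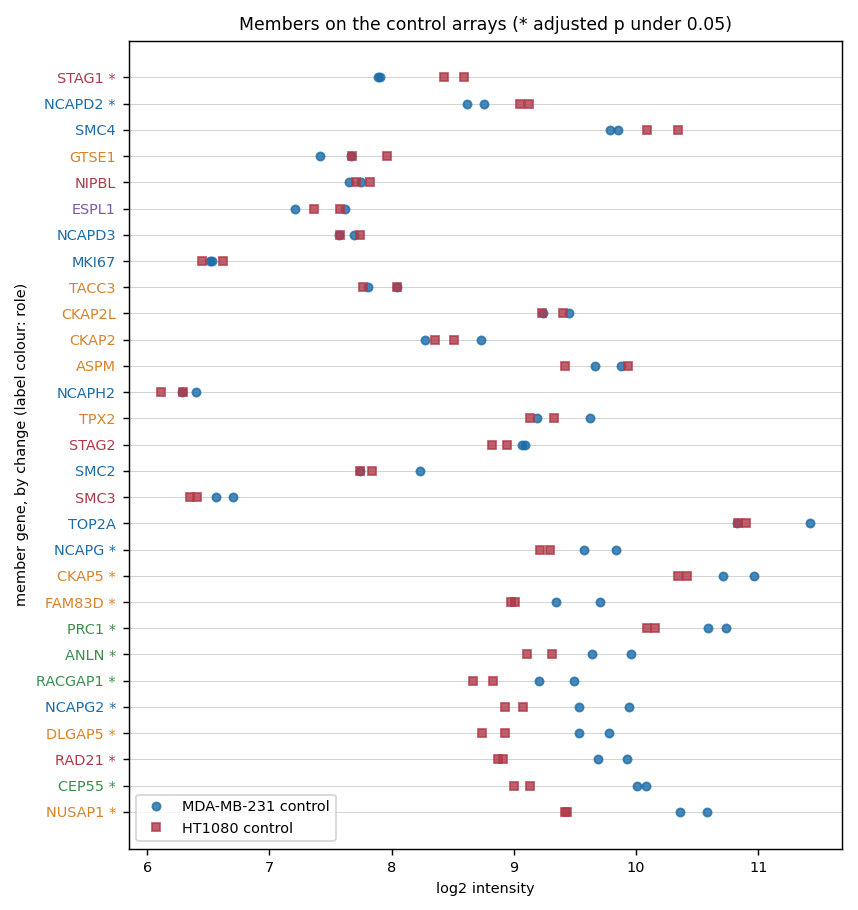
Log2 intensity of the 29 tested members on the 2 control arrays of MDA-MB-231 (blue circles) and of HT1080 (red squares), sorted by the difference, with gene labels coloured by role and an asterisk at a limma adjusted p under 0.05. NUSAP1, CEP55, RAD21, DLGAP5 and NCAPG2 sit at the bottom, lower in HT1080, followed by the cytokinesis genes RACGAP1, ANLN and PRC1. STAG1 and NCAPD2 sit at the top, higher in HT1080.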

How the data were processed

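RNA of 8 samples was measured on Illumina bead arrays, and the authors deposited a log2 intensity for each of 24526 probes on every array. GenomeStudio was used, per the submitters' processing notes, and the normalization is not given in the sources used here. The deposited columns shared nearly 1 distribution (largest percentile difference 0.00305 log2) and were used as they were. Whether background was subtracted is not given in the sources used here, so log2 changes of dim probes may be understated. No detection p was used, and the number of arrays limits the precision.

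Probes were named by the platform annotation, updated through RefSeq gene IDs (21834 probes with 1 symbol, 2692 with none). Probes whose highest group mean was at or above the median over probes, 6.08 log2, were kept, and the brightest kept probe stood for a gene. The model for all 9451 genes used limma (version 3.58.1, under R version 4.3.3; lmFit, then eBayes; 1 mean per group, 4 residual degrees of freedom), with two-sided tests and Benjamini-Hochberg adjustment over all genes within each of 5 comparisons. Calls are at an adjusted p under 0.05. SE is from the fit. The procedure was tested on simulated data. The members, classes, lists and settings were chosen with earlier results of these data known. Every member is a named gene, given in full where called or among the 2 highest or lowest, and pathway genes are named where called, up to 3 per direction and comparison by size, apart from those said to be chosen after their values were seen. Promoters come from RefSeq, GRCh38.p14.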

Additional observations from a re-analysis of the deposited data

How the results depend on the processing

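The medians of the cell-cycle regulated members stayed negative after siVRK1 under every setting run. The count of members called in MDA-MB-231 was 1, where 45 of all 9451 genes were called higher and 49 lower. It was 2 with no filter (109 of all 16922 genes called), 0 with normexp background correction (51 of 9451) and 0 with that line fitted alone (0 of 9451). In HT1080 it was 0 (29 of all 9451 genes called). It was 1 with no filter (34 of 16922) and 1 when a gene's probes were averaged (32 of 9451). With HT1080 fitted alone (84 of 9451 genes called) it was 3, TOP2A, STAG2 and CEP55. Leaving out each array in turn gave 0 to 2 in MDA-MB-231, 0 to 1 in HT1080, 0 to 10 on the average and 11 to 14 between control lines. It gave medians of -0.43 to -0.16 log2 (MDA-MB-231), -0.36 to -0.26 (HT1080) and -0.42 to 0.012 (between control lines) for the cell-cycle regulated members, and of -0.19 to -0.10, -0.31 to -0.12 and -0.25 to -0.14 for the cohesin members. The cohesin medians were, in MDA-MB-231, -0.13 with no filter, -0.15 with the stricter filter and -0.23 with normexp, in HT1080 -0.11 with no filter, and between control lines -0.13 with no filter and -0.064 with the stricter filter. The filters change which genes are kept, and for the other settings the cause was not tested.

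With the replicate number as a replicate block the counts were 1, 0, 7, 0 and 14 (MDA-MB-231, HT1080, average, difference and control lines), with TOP2A gained on the average. Over all 9451 genes the counts with this block were 107, 16, 279, 0 and 5200. Same-numbered control and siVRK1 arrays deviated together in MDA-MB-231 (r = 0.485 across genes) and not in HT1080 (r = -0.05), so the numbers were not taken to pair the samples.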
